A study of Drosophila melanogaster with 2 samples.

Results

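The genes described here encode the subunits of the Drosophila proteasome. They were taken by symbol from the Ensembl release 115 annotation: every protein-coding gene whose symbol starts with Prosalpha, Prosbeta, Rpn and a digit, or Rpt and a digit. The rule gave 48 of 13945 protein-coding genes. Of these, 25 belong to the core particle, with 12 alpha ring and 13 beta ring genes, and 23 to the regulatory particle, with 9 base ATPase, 5 other base and 9 lid genes. By symbol there were also 32 canonical subunits and 16 copies, 12 with an R (related) and 4 with a T (testis) in the symbol. The symbols were complete for the canonical rings, with 7 alpha and 7 beta genes, and for the 6 ATPases. The small lid subunit Sem1 has a symbol outside the rule and is given with the pathway genes.

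Chromatin immunoprecipitation followed by sequencing (ChIP-seq) was used to map Eip74EF in embryos of Drosophila melanogaster. Eip74EF is an ETS-domain transcription factor induced by the steroid hormone ecdysone. There was 1 group of 2 biological replicates, numbered 1 and 3. Each was made from whole embryos aged 8 to 16 h, males and females together, of the Eip74EF-GFP strain. This transgenic line stably carries Eip74EF with enhanced green fluorescent protein (eGFP) at its C terminus, and the antibody used was against GFP. The labels do not give the promoter that drives the fusion or whether the untagged gene is also present, and peaks from embryos without the tag were not analysed here. In whole embryos, occupancy in few cells and weaker occupancy in many cells cannot be told apart. There were 4 peak lists: 1 for each replicate and 1 for both pooled, with 30000 peaks each, and the list filtered by irreproducible discovery rate (IDR), with 5004 peaks.

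The proteasome is the large protease that degrades proteins marked with ubiquitin. Its core particle is a barrel of stacked rings. The beta rings hold the proteolytic sites, and the alpha rings form the gate. The regulatory particle caps the barrel: its base holds a ring of Rpt ATPases that unfold the substrate, together with ubiquitin receptors, and its lid removes the ubiquitin chain. Subunits are needed together in nearly every cell, and in flies a set of gene copies is used in the male germline.

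In the IDR list, lid genes carried most of the promoter peaks of the proteasome and core particle genes carried none. A gene was counted when any of its transcription start sites (TSSs) had a peak summit within 500 bp. Of all 48 proteasome genes, 5 had an IDR summit there (10.4%, exact Clopper-Pearson 95% interval 3.47 to 22.7), against 15.6% of all protein-coding genes. These were the lid genes Rpn3, Rpn5, Rpn9 and Rpn11 and the base gene Rpn13. All 5 belong to the regulatory particle (5 of 23, 21.7%, interval 7.46 to 43.7). In the core particle the count was 0 of 25. Taking 3 counts as the most that a count of 0 allows, the share could be up to 12%, and the exact interval ends at 13.7%. When each summit was given to its nearest TSS alone, 3 genes were left, against 12.8% of all protein-coding genes. The intervals cover counting error over genes only. The share among all 48 genes lay near the background, and no list test was made, so neither the total nor the split between particles is more than a description of these lists.

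With the copies set apart, the shares were higher. Of the 32 canonical subunits, 5 had an IDR summit (15.6%, interval 5.28 to 32.8), the same share as over all protein-coding genes (15.6%). Among canonical subunits, 4 of 8 lid genes had an IDR summit (50%, interval 15.7 to 84.3), 1 of 4 other base genes, 0 of 6 ATPases, 0 of 7 alpha and 0 of 7 beta genes. In classes this small the exact intervals of a count of 0 reach 45.9% (ATPases) and 41.0% (each ring). Over both rings, 0 of 14 canonical core genes had an IDR summit, with an exact interval up to 23.2%. This interval holds the 15.6% of all protein-coding genes. In the longer pooled list the core genes appeared as well. It held a promoter summit for 15 of the 48 proteasome genes (31.2%, interval 18.7 to 46.3), against 38.7% of all protein-coding genes. All 15 were canonical, which made 46.9% of the 32 canonical subunits (interval 29.1 to 65.3). By class, these were 6 of 8 canonical lid genes, 2 of 4 other base genes, 1 of 6 ATPases, 3 of 7 alpha and 3 of 7 beta genes. With replicate 3 left out, so that the list of replicate 1 stood for the pooled list, it was 24 of 48, against 47.2% of all protein-coding genes, and with each summit given to its nearest TSS alone 9 of 48, against 34.1% of all genes. A pooled summit without an IDR summit was found at 10 of 48 genes (20.8%), against 23.1% of all protein-coding genes. Over the canonical genes, the pooled list held summits for 6 of 14 in the core particle (42.9%) and 9 of 18 in the regulatory particle (50%). Over all genes, copies included, it was 6 of 25 (24.0%) and 9 of 23 (39.1%). Among the 15000 strongest pooled peaks it was 2 of 25 core and 9 of 23 regulatory particle genes, against 30.7% of all protein-coding genes, and with each summit given to its nearest TSS alone 2 of 25 and 7 of 23.

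**Figure D1:**
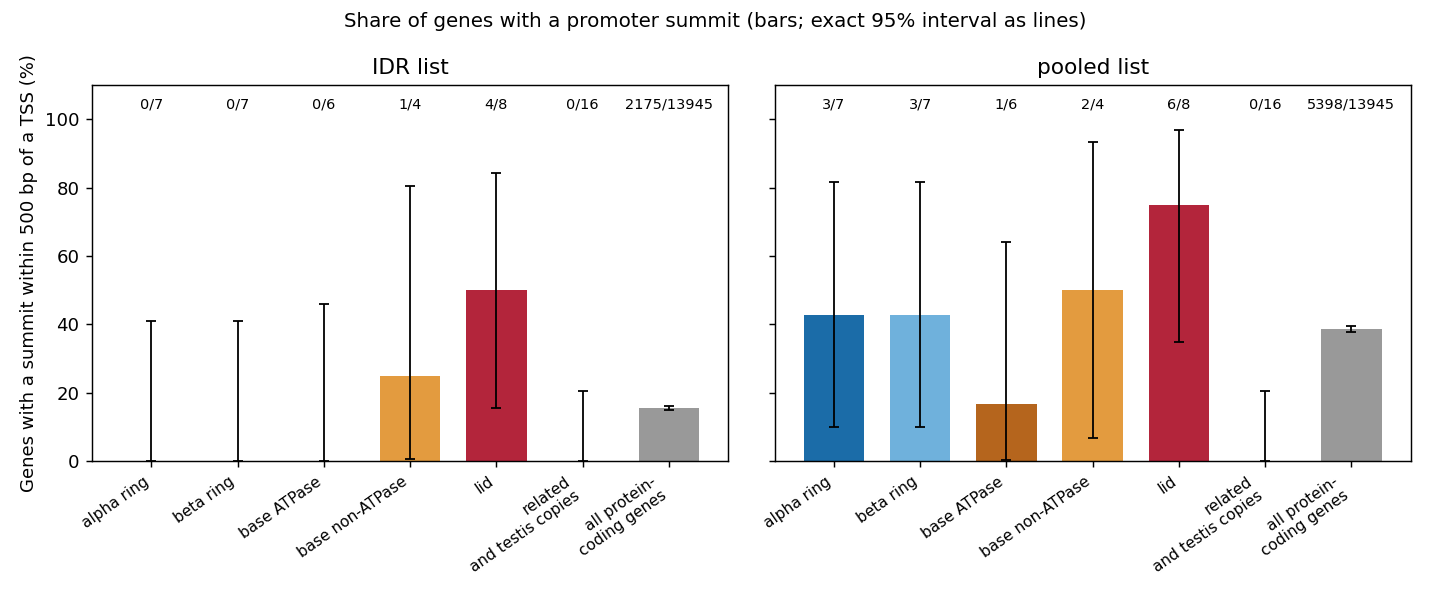
Percentage of genes with a summit within 500 bp of a TSS in the IDR list (left) and the pooled list (right), for the 5 classes of canonical subunits, for the 16 related and testis copies and for all protein-coding genes; bars are shares, lines exact 95% intervals, and the counts stand above. The lid bars are the highest, at 50% and 75.0%, and the copies are at 0 in both lists.

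The lid gene Rpn9, a scaffold subunit, had the strongest peak of any proteasome gene. Its summit had a signal of 393 in the authors' units and ranked 1402 of the 5004 IDR peaks, where rank 1 is the strongest. The signal was 144 in replicate 1 and 252 in replicate 3. The summit lay 116 bp downstream of the Rpn9 TSS, in its 5′ UTR, and was present in both replicates. The TSS of a neighbouring gene was nearer, at 22 bp, and the summit lay in the 5′ UTR of that gene as well. Rpn9 was therefore not counted when each summit was given to its nearest TSS alone.

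Rpn3, also a lid scaffold subunit, was next. Its summit on arm 2L at 19051784 lay 6 bp upstream of its own TSS, with a signal of 385 and rank 1452. Replicate 1 gave 149 and replicate 3 gave 227 at this promoter. Of the 5 genes this is the one whose peak sat on its own start site.

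Rpn11 encodes the metalloprotease that cuts the ubiquitin chain from the substrate. Its summit on arm 2L at 5060018 lay 228 bp upstream, between genes, with a signal of 248 and rank 3131. The replicates gave 88.4 (replicate 1) and 159 (replicate 3). A second and stronger IDR summit, at 5061388 with a signal of 294, lay 1598 bp upstream in an intron of the neighbouring gene qtc.

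The lid scaffold gene Rpn5 had the weakest of these peaks, close to the end of the IDR list, and replicate 3 did not have it. Its summit on arm 3R at 5789256 had a signal of 190 and ranked 4790, while the lowest signal in the IDR list was 185. It lay 237 bp upstream of Rpn5, inside an intron of the neighbouring gene Hat1, a histone acetyltransferase whose TSS was 128 bp away. Replicate 1 had a summit 43 bp from it with a signal of 77.3, but the nearest summit of replicate 3 was 2520 bp away. Only 77 of the 5004 IDR peaks (1.54%) had no summit of replicate 3 within 500 bp. A weaker pooled summit, with a signal of 81.6, lay 34 bp upstream of Rpn5, with the Rpn5 TSS as the nearest.

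Set among the 2175 genes with an IDR promoter summit, these peaks were of ordinary strength. The median signal was 295 over the 5 proteasome genes and 305 over all such genes, whose values ran from 185 to 3224. Rpn9 exceeded 65.8% of them, Rpn3 64.6%, Rpn13 47.2%, Rpn11 32.3% and Rpn5 3.95%.

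Lid genes hold most of the IDR peaks described here, so the sequences at 3 of them are shown. They come from the RefSeq release 6 assembly (dm6) and run 5′ to 3′ on the strand of the gene. For Rpn11 and Rpn5 the 50 bases to either side of the summit are given, all in lower case. For Rpn3 the bases just upstream of the TSS are given, with the second copy of a tandem repeat in capitals.
Rpn3, chr2L:19051613-19051789, plus strand: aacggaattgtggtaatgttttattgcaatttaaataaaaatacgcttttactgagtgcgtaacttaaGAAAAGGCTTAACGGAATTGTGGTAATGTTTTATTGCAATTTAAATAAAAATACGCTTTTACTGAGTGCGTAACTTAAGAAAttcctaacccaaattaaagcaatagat
Rpn11, chr2L:5059968-5060068, minus strand: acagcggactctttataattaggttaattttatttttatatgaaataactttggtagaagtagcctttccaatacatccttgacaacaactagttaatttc
Rpn5, chr3R:5789206-5789306, plus strand: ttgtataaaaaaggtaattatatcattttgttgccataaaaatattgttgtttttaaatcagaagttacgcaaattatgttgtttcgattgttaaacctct
The share of G and C within 50 bp of the summit was 28.7% at Rpn11, 23.8% at Rpn5, 27.7% at Rpn3, 24.8% at Rpn13 and 50.5% at Rpn9. The 5 averaged 31.1%, against 35.9% over all IDR summits. The ETS core string CGGAAG lay within 50 bp of 1 of the 5 promoter IDR summits, that of Rpn9, against 7.31% of all IDR summits.

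The Rpn3 promoter holds an exact tandem repeat of 82 bases. Counted from the TSS, the copies start at -187 and -109, a period of 78 bp, and the summit lies just downstream of the second copy. Of all 13945 promoter windows, running from 250 bases upstream of the outermost TSS to 50 bases downstream, 34 (0.244%) held an exact repeat of at least 30 bases and 6 (0.0430%) one of at least 82. Rpn3 was the 1 proteasome gene among the 34. Whether the repeat changed how reads were placed at Rpn3 was not tested.

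Among base genes, Rpn13, a ubiquitin receptor, had the only IDR peak at a promoter. Its summit on arm 2R at 13960483 lay 79 bp upstream of the nearest Rpn13 TSS, with a signal of 295 and rank 2318. The replicates gave 114 (replicate 1) and 181 (replicate 3), so the peak was present in both. A weaker pooled summit, with a signal of 147, lay 298 bp upstream and 27 bp from the TSS of CtsL1, a cathepsin gene. Rpn2, the large scaffold of the base, had a pooled summit of 93.2 at 129 bp upstream, as far from Rpn2 as from the histone mRNA binding protein gene Slbp. The replicates gave 47.6 (replicate 1) and 54.1 (replicate 3) near Rpn2, but with summits 268 bp apart. A stronger peak in the IDR list, with a signal of 343, lay 1618 bp upstream of Rpn2 and 112 bp from the TSS of eIF2D.

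The ATPase ring was the canonical class with the fewest pooled peaks. Of its 6 canonical genes, Rpt2 had a pooled summit, 25 bp upstream of a TSS in its own 5′ UTR, with a signal of 113. It was 61.5 in replicate 1 and 47.5 in replicate 3. Rpt3 had a summit in replicate 1 alone, at 44.6, and Rpt1, Rpt4, Rpt5 and Rpt6 had none in any list. The pooled share of 1 in 6 had an exact interval of 0.421 to 64.1%, which holds the 38.7% of all protein-coding genes, and its difference from the lid was not tested.

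The core particle genes had weak peaks where they had any. Their 6 pooled promoter signals ran from 45.8 to 128 with a median of 70.3, against 87.1 to 393 with a median of 190 for the 9 regulatory particle genes and a median of 152 over all 5398 genes with a pooled promoter summit. The strongest was Prosbeta7, a beta ring subunit without a proteolytic site, at 128 and rank 8417 of 30000. Its summit lay 153 bp downstream of a TSS in a coding exon, and the deposited −log10 q-value was 3.38, against 4.18 for every IDR peak. The value 4.18 is the highest in the pooled list and was also reached outside the IDR list. The replicates gave 43.0 (replicate 1) and 76.4 (replicate 3), with summits 111 bp apart.

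Prosbeta5 and Prosbeta1 encode subunits with proteolytic sites. Prosbeta5, the chymotrypsin-like subunit, had 124 in the pooled list, 63.8 in replicate 1 and 71.3 in replicate 3. Its summit was 124 bp upstream and nearer to the TSS of dgo, a planar polarity gene. Prosbeta1, the caspase-like subunit, had 75.2 in the pooled list, 42.4 in replicate 1 and 28.1 in replicate 3, with the summit nearer to the exosome gene Rrp42. Prosbeta2, the trypsin-like subunit, had no pooled summit and 26.6 in replicate 1. Both pooled values were under the median of all genes with a pooled promoter summit, and both summits lay nearest to another gene's start.

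The alpha ring had 3 genes in the pooled list, all below every beta ring value: Prosalpha5 at 65.4, Prosalpha4 at 53.3 and Prosalpha6 at 45.8. The Prosalpha4 summit was 366 bp upstream and 13 bp from the TSS of kat80, a katanin subunit gene. That of Prosalpha6 was nearer to Npc1a, a sterol transport gene. Prosalpha5 kept its own TSS as the nearest, with summits 205 bp and 5 bp upstream. No core gene had an IDR summit closer than 1974 bp, and the median distance to one was 7718 bp for canonical core genes, 4370 bp for canonical regulatory particle genes and 8590 bp over all protein-coding genes. Core copies had 58560 bp, which raised the median of the core particle as a whole to 15972 bp.

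**Figure D2:**
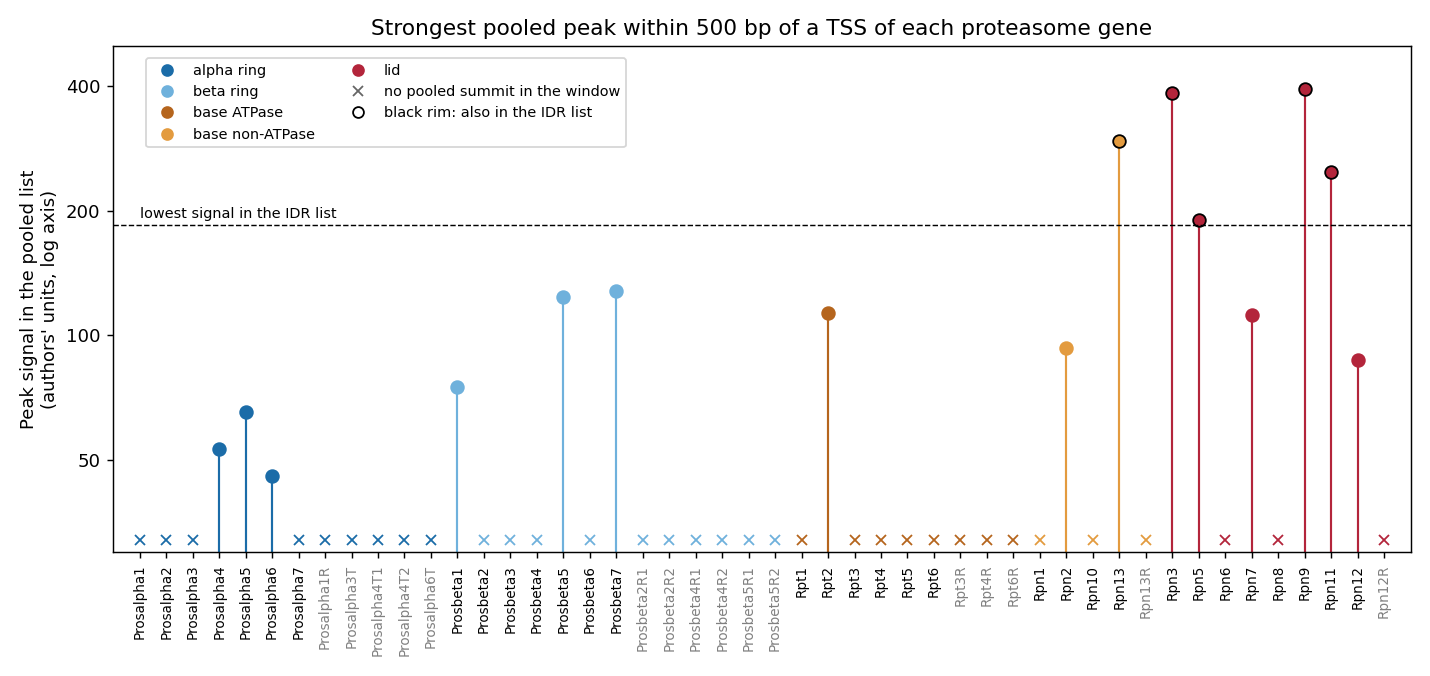
Signal of the strongest pooled peak within 500 bp of a TSS (authors' units, log axis) for each of the 48 proteasome genes, coloured by class, with crosses for genes without one and copies in grey letters. The 5 genes above the dashed line, the lowest IDR signal of 185, belong to the lid and base, and core genes reach at most 128.

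Lid genes without an IDR peak still had summits in the data. Rpn7 had a pooled signal of 112, with 29.8 in replicate 1 and 63.5 in replicate 3, nearer to the TSS of AP-2mu. Rpn12 had 87.1, with 53.5 in replicate 1 and 44.2 in replicate 3, and its own TSS was the nearest. Rpn8, the inactive partner of Rpn11, had 92.5 in replicate 1 at rank 3406, and Rpn6 had 51.2 in replicate 1, but neither was in replicate 3 or the pooled list. The Rpn8 summit lay 403 bp from an Rpn8 TSS and 78 bp from that of Slik. A weaker summit of replicate 1, at 38.4, lay nearest to Rpn8. The Rpn6 summit was nearer to the TSS of ave, at 112 bp, than to that of Rpn6, at 138 bp. Every one of the 8 canonical lid genes therefore had a summit in replicate 1. In replicate 3 it was 5 of 8. Replicate 1 held one for 75.0% of canonical subunits and 47.2% of all genes, and replicate 3 for 40.6% and 36.0%. The strongest replicate 1 summits of Rpn5, Rpn6, Rpn7, Rpn8 and Rpn9 lay nearest to another gene's start. Those of Rpn3, Rpn11 and Rpn12 lay nearest to their own.

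In all, replicate 1 held promoter summits for 24 of the 48 proteasome genes (50%), against 47.2% of all protein-coding genes. Replicate 3 held them for 14 (29.2%), against 36.0%. A summit in both replicates was found at 12 (25.0%), against 32.5%. A further 12 (25.0%) had a summit in replicate 1 alone, against 14.8%, and 2 (4.17%) in replicate 3 alone, against 3.55%. Of the replicate lists, the genes seen in that of replicate 1 alone were Prosalpha2, Prosalpha3, Prosalpha6, Prosalpha7, Prosbeta2, Prosbeta3, Rpt3, Rpn1, Rpn5, Rpn6, Rpn8 and Rpn10, with signals from 26.6 to 92.5. Those in replicate 3 alone were Prosalpha4, at 56.1, and the copy Prosbeta2R2.

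For the 12 genes in both replicates, signal in replicate 3 over replicate 1 ran from 0.664 at Prosbeta1 to 2.13 at Rpn7, with a median of 1.33. Over all 4528 genes in both it was 1.62. The 4 strongest of these genes, Rpn9, Rpn3, Rpn13 and Rpn11, had ratios of 1.75, 1.52, 1.59 and 1.80 and summits at most 43 bp apart. Below them Prosalpha5, Prosbeta1, Rpt2 and Rpn12 had lower values in replicate 3 than in replicate 1. The scale of each list is its own, and the replicate lists derive from the same control alignment.

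**Figure D3:**
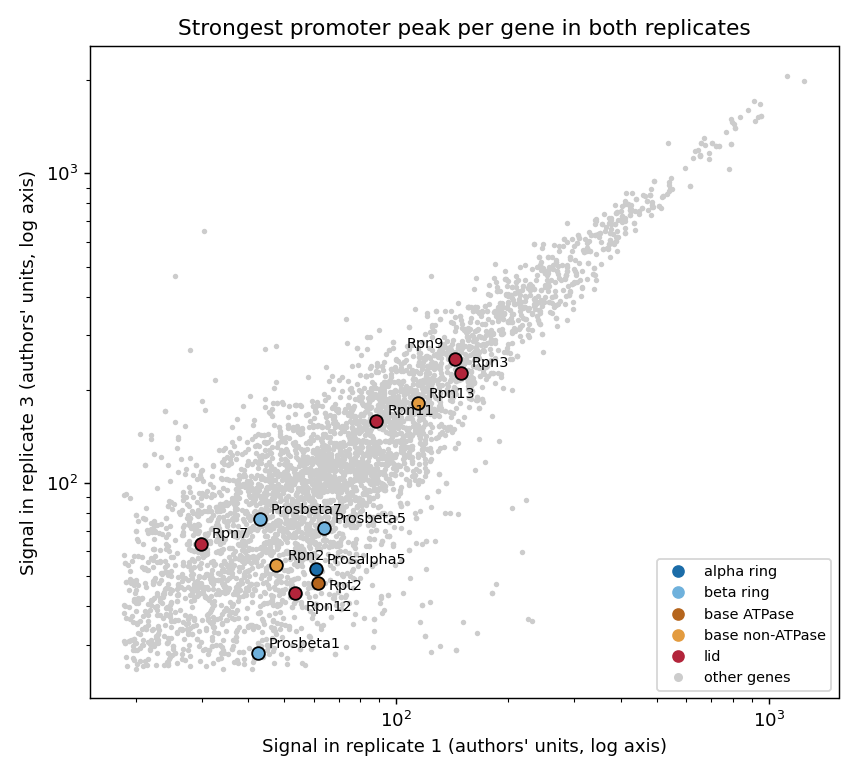
Strongest promoter signal per gene in replicate 1 (x) and replicate 3 (y), both in the authors' units on log axes, for the 12 proteasome genes with a summit in both lists (coloured by class) and the other genes with one (grey). Rpn9, Rpn3, Rpn13 and Rpn11 lie in the upper part of the cloud and the other 8 in the lower part, with at most 76.4 in either list.

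The copies had almost no peaks. None of the 16 had a summit in the IDR or the pooled list (exact interval up to 20.6% in each), and none had one in replicate 1. Prosbeta2R2 had a signal of 56.7 in replicate 3, 104 bp from the TSS of the neighbouring gene CG1116. The remaining 15 of 16 (93.8%) had no summit in any of the pooled and replicate lists. Over all 48 proteasome genes 22 (45.8%) had none, against 48.7% of all protein-coding genes. Among canonical genes it was 7 of 32 (21.9%): Prosalpha1, Prosbeta4, Prosbeta6 and the 4 ATPase genes Rpt1, Rpt4, Rpt5 and Rpt6. The copies also lay far from peaks, with a median of 37464 bp from a TSS to the nearest IDR summit, against 5519 bp for canonical subunits and 8590 bp for all protein-coding genes.

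Most of the pooled summits lay upstream. At the 15 genes there were 19 pooled summits, 17 upstream and 2 downstream of the nearest TSS of the gene, and 17 lay within 250 bp, with a median distance of 116 bp. Of the upstream ones, that of Rpt2 and the weaker one of Prosbeta7 lay in the gene's own 5′ UTR, downstream of its outermost TSS. For 8 of the 19 the nearest TSS was that of another gene. No matching shares over all pooled promoter summits are given here, so these positions describe the members alone. Canonical proteasome genes are often arranged close to a neighbour: 22 of 32 (68.8%) had a TSS of another gene within 1000 bp, against 4 of 16 copies (25.0%) and 42.9% of all protein-coding genes. Of the 26 proteasome genes with such a neighbour, 4 had an IDR summit (15.4%), against 20.5% of all genes so arranged, and 11 a pooled summit (42.3%), against 45.3%. Of the 22 without one, 1 had an IDR summit (4.55%), against 11.9%, and 4 a pooled summit (18.2%), against 33.7%. These 26 and 22 genes include 4 and 12 copies, none with a summit in either list. Among canonical subunits alone, 4 of 22 with a neighbour had an IDR summit (18.2%) and 11 a pooled summit (50%). Without a neighbour it was 1 of 10 and 4 of 10. The exact intervals of these canonical shares all held the share of all genes so arranged. With a neighbour they were 5.19 to 40.3% (IDR) and 28.2 to 71.8% (pooled), and without one 0.253 to 44.5% and 12.2 to 73.8%. A summit between a pair of starts counts for both genes, and which of them it serves cannot be told from a peak list.

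**Figure D4:**
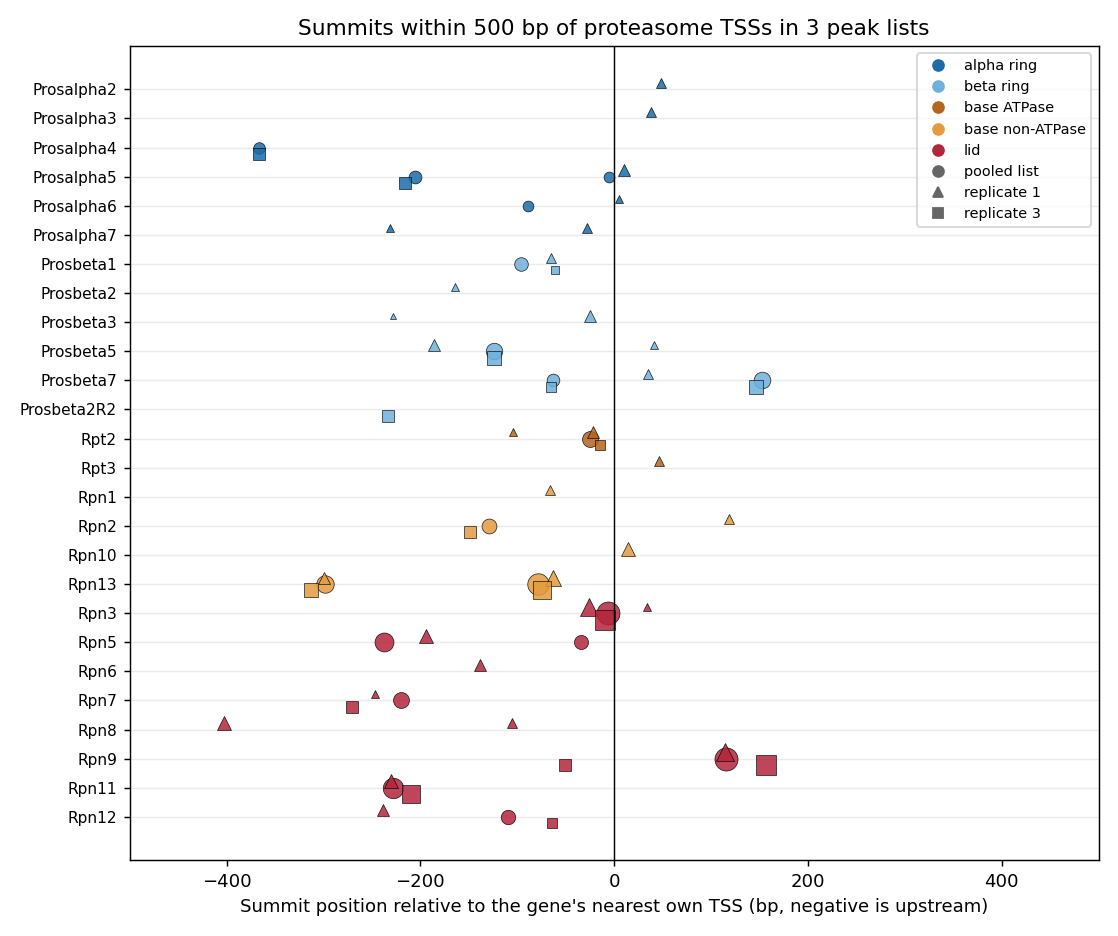
Position of each summit within 500 bp of a proteasome TSS, in bp from the gene's nearest TSS with upstream negative, in the pooled list (circles), replicate 1 (triangles) and replicate 3 (squares), coloured by class; larger symbols have higher signal. The strongest summits of Rpn3, Rpn9, Rpn11 and Rpn13 lie at most 43 bp apart between the replicates, while those of Rpn2 lie 268 bp apart.

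A wider window added little. Over the whole gene and the 2 kb before it, 7 of 48 proteasome genes had an IDR summit (14.6%), against 24.7% of all protein-coding genes. Besides the 5 genes above these were Rpn2 and the beta ring gene Prosbeta6, which had a summit 1974 bp upstream and 94 bp from the TSS of CG4101.

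The sequences of the promoters were searched for the strings of known factors. TATCGATA, bound by the factor DREF at many housekeeping promoters, was found in 12 of 32 canonical windows (37.5%) and 0 of 16 copies, against 9.36% of all 13945 windows of the same 300 bases, on either strand. It occurred in Prosalpha3, Prosalpha5, Prosalpha6, Prosbeta1, Prosbeta2, Prosbeta6, Rpt5, Rpn3, Rpn7, Rpn9, Rpn12 and Rpn13, in core and regulatory genes alike. Of these 12, 3 had an IDR summit (25.0%), against 22.5% of all genes with the string, and 8 a pooled summit (66.7%), against 51.5%. Of the 20 canonical genes without it, 2 had an IDR summit (10%), against 14.9% of all genes without the string, and 7 a pooled summit (35%), against 37.4%.

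The string and its surroundings are shown for 7 of these genes, 30 bases each from the same assembly, 5′ to 3′ on the strand of the gene, with TATCGATA in capitals.
Rpn3, chr2L:19051582-19051611, plus strand: tgttatcggagTATCGATAtcgaaaaggct
Rpn7, chr3R:22462033-22462062, minus strand: gcggtataattTATCGATAattttggggtc
Rpn12, chr3L:16582801-16582830, plus strand: ttgttaaaataTATCGATAttaaagcacaa
Prosalpha6, chr2L:10221324-10221353, plus strand: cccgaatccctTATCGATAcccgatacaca
Prosbeta2, chr3L:14999930-14999959, plus strand: ccatgaatataTATCGATAcaatatcgatt
Prosbeta6, chr3L:16610444-16610473, minus strand: gtatgtataccTATCGATAacgtttaagca
Rpt5, chr3R:23752819-23752848, plus strand: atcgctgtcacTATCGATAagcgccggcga
Of the 7, Rpn3, Rpn7, Rpn12 and Prosalpha6 had a pooled summit at the promoter, weak in Prosalpha6 at 45.8. Prosbeta2, Prosbeta6 and Rpt5 had none. Of the genes with the string that are not shown, Prosalpha5, Prosbeta1, Rpn9 and Rpn13 had a pooled summit and Prosalpha3 had none. The 7 are thus no guide to how summits divide among the 12 genes with the string.

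Other strings were less common. The ETS core CGGAAG, which is contained in the longer consensus CCGGAAGT, was found in 2 of 48 proteasome windows (4.17%), those of Rpn1 and Rpn6, against 6.32% of all windows. Neither gene had a pooled summit. The consensus itself was in 0 of 48, against 0.380% of all windows. GGTCACACT, the string of the factor M1BP, was in 5 of 48 (10.4%), against 6.05%. TGACNNNGC, the element of cnc and maf-S, which induce proteasome genes when the proteasome is impaired, was in 6 of 48 (12.5%), against 8.63%. Over canonical windows alone, GGTCACACT and TGACNNNGC were each in 5 of 32 (15.6%), and CGGAAG was in 2 of 32 (6.25%). The E-box CACGTG was in 0 of 48, against 4.20%. These are matches to letters and not sites, and a window without a match says nothing of the factor.

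**Figure D5:**
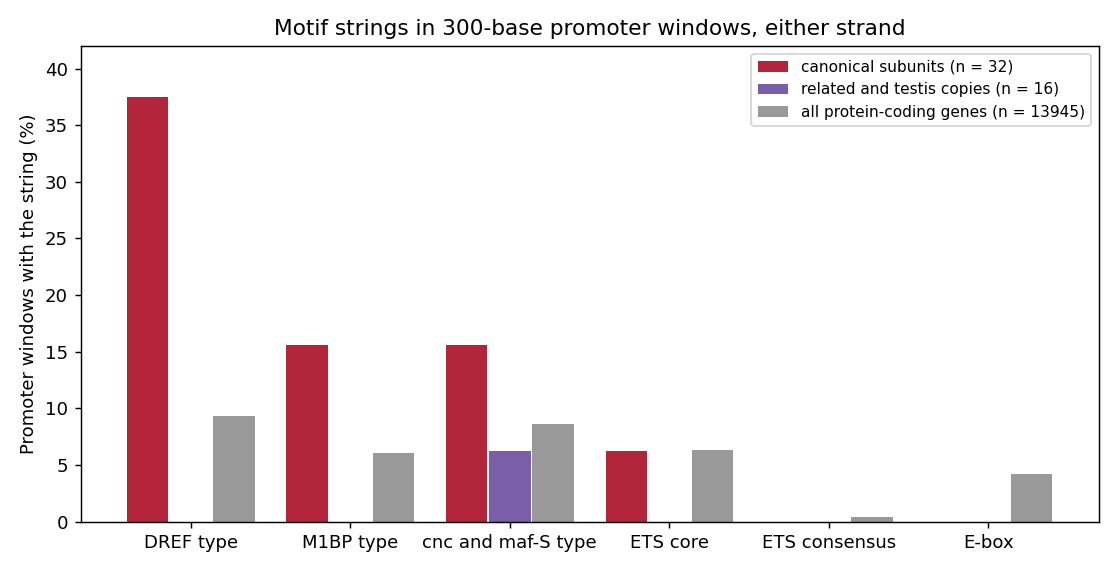
Percentage of 300-base promoter windows that hold each of 6 strings on either strand, for the 32 canonical proteasome subunits, the 16 copies and all 13945 protein-coding genes. The DREF type string stands highest in the canonical subunits, at 37.5% against 9.36% of all genes.

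Genes that act with the proteasome were read from a list of 20. Of these, 5 had an IDR summit (25.0%) and 10 a pooled summit (50%), against 15.6% and 38.7% of all protein-coding genes. The transcription factor gene cnc had the highest value, 488 in the pooled list, with 140 in replicate 1 and 331 in replicate 3. Pomp, the chaperone that assembles the core particle, had 420 in the pooled list, 146 in replicate 1 and 278 in replicate 3. Both pooled signals exceeded that of every proteasome gene. The value is the strongest over all TSSs of a gene, and cnc has 10, against 1 for Pomp and a mean of 1.27 for proteasome genes. All 5 ubiquitin and ubiquitin-activating genes had a pooled summit: RpS27A at 348 and RpL40 at 192, which encode ubiquitin fused to a ribosomal protein, Ubi-p5E at 149 and Ubi-p63E at 141, which encode polyubiquitin, and Uba1 at 137. Of the shuttle factors and the unfoldase TER94 with its partners, Rad23 had 194 and Ufd1 106, while Ubqn and TER94 were seen in replicate 1 alone and rngo and Npl4 in no list.

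Keap1, the inhibitor of cnc, had 180 in the pooled list, just under the lowest IDR signal, and maf-S, the partner of cnc, was seen in replicate 1 alone. The lid subunit Sem1 had 23.4 in replicate 1 alone, the weakest value of any lid gene. PI31 and Usp14, a regulator and a deubiquitinase of the proteasome, were also seen in replicate 1 alone, and the activator REG and the deubiquitinase Uch-L5 in none of the lists.

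Ribosomal protein genes, taken by symbol, give a measure for another large complex of every cell. Of the 88 genes of the cytosolic ribosome 62 had an IDR summit (70.5%), against 5 of 48 proteasome genes. For the mitochondrial ribosome it was 17 of 73 (23.3%). The proteasome share lay below both, and the difference was not tested. The 48 genes include 16 copies without an IDR summit. Over the 32 canonical subunits alone the share was 15.6%, also below both.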

How the data were processed

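Per the deposited file descriptions, the authors made each replicate peak list from that replicate's alignments and a control alignment shared by both, the pooled list from the alignments of both with the same control, and the IDR list from these 3 lists, on assembly dm6. Not given in the sources used here were the aligner, the peak caller and the IDR threshold. In every deposited row there is an interval, a summit offset, a signal value in the authors' units and, per the file layout, a −log10 q-value that the authors computed. Signals were used within a list, as values and ranks, and set side by side between replicates. The IDR list was found to be the 5004 strongest of the 30000 pooled peaks. No read counts were used, so depth is unknown, and the number of samples limits the precision. Per the labels, chromatin was sonicated to 200 to 800 bp.

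Summits were placed on TSSs of Ensembl release 115 (BDGP6.54), the same assembly, with Python 3.11.15, NumPy 2.4.6 and SciPy 1.17.1. Arm lengths of the RefSeq sequence used for strings match that assembly. A gene counted when any TSS had a summit within 500 bp, so 1 summit can count for several genes. With 1 group and no control sample there was no comparison over samples and no test. The window step was tested on simulated data. Full values are given for genes with an IDR summit, values in each list for the 12 genes of highest pooled signal, and neighbours where their TSS is the nearest to a counted summit, except that 1 neighbour is not reported here. Genes of lower signal, and those seen in 1 replicate or in no list, are named as an account of every member and were chosen after their values were seen, as was the tandem repeat. The members and lists were chosen with earlier results of these data known. In the pathway list, 2 symbols were updated to the annotation. Alternatives were windows of 250 and 1000 bp, the 2502 strongest IDR and 15000 strongest pooled peaks, the outermost TSS alone, the nearest TSS alone and each replicate left out.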

Additional observations from a re-analysis of the deposited data

How the results depend on the processing

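The counts of genes with a promoter summit moved with the TSS a summit was given to, with the strength asked of a peak and, in the pooled list, with the replicate used. Giving each summit to its nearest TSS alone left 3 of the 5 proteasome genes with an IDR summit (Rpn3, Rpn11 and Rpn13, also 3 for the regulatory particle), 9 of 15 with a pooled summit and 2 of 6 core particle genes with a pooled summit. With the 2502 strongest IDR or 15000 strongest pooled peaks alone, 3 proteasome genes kept an IDR summit (Rpn3, Rpn9 and Rpn13, again 3 for the regulatory particle), against 8.81% of all protein-coding genes, and 11, among them 2 core particle genes, kept a pooled one, against 30.7%. With a replicate left out, the other replicate's 5004 strongest peaks stood for the IDR list and its 30000 peaks for the pooled list. The IDR counts then ranged from 4 (without replicate 1) to 6 (without replicate 3, which adds Rpn8) for all proteasome genes and for the regulatory particle, against 14.5% and 18.1% of all protein-coding genes, and were 0 both times for the core particle. The pooled counts ranged from 14 to 24 for all proteasome genes, from 6 to 10 for the core particle and from 8 to 14 for the regulatory particle, the higher value each time without replicate 3. The background of the pooled counts moved as well, to 47.2% of all protein-coding genes without replicate 3 and 36.0% without replicate 1. The cause was not tested. All other alternatives (windows of 250 and 1000 bp, the outermost TSS) kept the 5 IDR genes and gave 14 or 15 pooled genes. No paired analysis was possible because there was 1 group. Depth is unknown, and a gene without a listed peak may have a weaker one that a list of fixed length leaves out.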
